A study of Mus musculus with 18 samples.

Results

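The genes described here are the nuclear-encoded subunits of the mitochondrial respiratory chain, complexes I to IV, in the liver of mice given monocrotaline (MCT), a plant pyrrolizidine alkaloid made reactive in the liver by cytochrome P450 enzymes. Members were all genes on the array whose symbol begins with Ndufa, Ndufb, Ndufc, Ndufs, Ndufv, Sdh (a to d), Uqcr or Cox4 to Cox8, with assembly factors and pseudogenes left out. This gave 68 of 32451 gene names, carried by 87 of 39429 probes. Of the 68 genes, 66 had a probe well above background on every array of at least 1 group and were tested. The exceptions were Cox7b2, well above background on 0 control, 1 MCT 270 and 2 MCT 330 arrays, and Cox8c, on none. Ndufb1, Ndufb4b and Ndufb4c were not matched on the array and, like the 13 mitochondrially encoded proteins of oxidative phosphorylation, are not analysed here. Cyc1, a nuclear-encoded subunit of complex III, lies outside these symbols and is listed with the electron carriers below.

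All groups were male C57BL/6 mice of 6 weeks that went without food for 12 h, received 1 dose by mouth and were killed 48 h later, with 8 mice per group. Controls received saline, the MCT 270 group 270 mg/kg MCT and the MCT 330 group 330 mg/kg MCT. Whole liver messenger RNA was measured on 9 single-colour arrays, 3 per group. A level is given below as log2 of the spot intensity over the 75th percentile of its array, so levels are compared between samples for 1 gene and not between genes.

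The 9 arrays held only 5 RNA samples that could be told apart. Arrays of a group were set against the noise between repeated spots of 301 probes. Pairs from the same group that stayed below that noise had ratios to it of 0.393 to 0.751 and were averaged, other pairs within a group had ratios of 2.39 to 3.16, and pairs from different groups 3.83 to 11.5. Control replicates 2 and 3, MCT 270 replicates 2 and 3, and all MCT 330 replicates were thereby joined, so that the control and MCT 270 groups hold 2 samples each and the MCT 330 group holds 1. Nothing in the labels says how the RNA of each array was drawn, and the p-values measure only the spread between these samples, with that of MCT 330 assumed to equal that of the other groups. MCT 330 replicate 1 sat at another place on its slide than replicates 2 and 3, so its joining is less certain. The MCT 330 arrays were scanned in sessions of their own, so that dose and scan session cannot be told apart there. Control and MCT 270 arrays shared sessions, but control arrays sat at slide places 1 and 2 and MCT 270 arrays at places 3 and 4. Dose and place therefore cannot be told apart in MCT 270 against control, nor in MCT 330 against MCT 270. In the control and MCT 270 groups, too, replicate 1 sat at another place than replicates 2 and 3. The 75th percentile of signal lay between 498.2 and 703, between 64.0% and 80.9% of spots were well above background, and no spot was saturated. Precision is limited by the number of RNA samples that could be told apart.

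The respiratory chain passes electrons from NADH (complex I) and succinate (complex II) through coenzyme Q to complex III, then by cytochrome c to complex IV, which reduces oxygen. Complexes I, III and IV pump protons, and ATP synthase uses the resulting gradient. Hepatocytes are rich in mitochondria and draw on this chain for gluconeogenesis, urea synthesis and fatty acid oxidation. The promoters of many nuclear-encoded subunits are known to hold sites for the factors NRF1, YY1 and GABP, an ETS family protein.

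Letter strings were searched on both strands of the windows from 250 bases before to 50 bases after each gene's start (RefSeq, build GRCm38.p6), which were given for 54 members. The NRF1 core GCATGCGC occurred in 7 members (13.0%), against 3.94% of 17492 protein-coding genes with a window. It lies inside the longer palindromic NRF1 site, which occurred in 3 members (5.56%), against 1.47% of coding genes. The YY1 core AAGATGGC occurred in 7 members (13.0%), against 3.57%, and the ETS core CCGGAAGT in 4 members (7.41%), against 5.69%. At least 1 of the 3 cores occurred in 17 members (31.5%), against 12.3% of coding genes. Windows of 4 members that hold a core are printed below with the match in capitals, as examples of these shared letters. They were picked among members called lower in the MCT 330 group against control. Other members with a core were not called, among them Cox6a1, Ndufa11 and Uqcrc1, which hold the longer NRF1 site. Whether a core goes with lower mRNA was not tested. Sdhb (chr4:140961021-140961320, plus strand) has the NRF1 core 54 bases before the start, and Uqcr11 (chr10:80406772-80407071, minus strand) has it 4 bases before the start and the ETS core 66 bases before. Ndufa9 (chr6:126849095-126849394, minus strand) and Ndufs4 (chr13:114388045-114388344, minus strand) have the YY1 core 29 and 35 bases after the start.
Sdhb: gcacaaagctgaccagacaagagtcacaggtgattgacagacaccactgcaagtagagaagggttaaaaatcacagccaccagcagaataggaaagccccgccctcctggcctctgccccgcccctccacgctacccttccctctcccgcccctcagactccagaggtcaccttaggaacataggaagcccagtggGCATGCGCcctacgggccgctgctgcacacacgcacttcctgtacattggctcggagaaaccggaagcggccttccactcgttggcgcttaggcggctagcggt
Uqcr11: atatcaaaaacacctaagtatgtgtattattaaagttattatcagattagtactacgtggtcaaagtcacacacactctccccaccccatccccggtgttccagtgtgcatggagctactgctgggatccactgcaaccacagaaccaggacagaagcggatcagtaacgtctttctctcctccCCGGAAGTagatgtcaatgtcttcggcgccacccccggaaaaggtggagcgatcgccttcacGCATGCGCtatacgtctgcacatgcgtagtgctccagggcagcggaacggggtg
Ndufa9: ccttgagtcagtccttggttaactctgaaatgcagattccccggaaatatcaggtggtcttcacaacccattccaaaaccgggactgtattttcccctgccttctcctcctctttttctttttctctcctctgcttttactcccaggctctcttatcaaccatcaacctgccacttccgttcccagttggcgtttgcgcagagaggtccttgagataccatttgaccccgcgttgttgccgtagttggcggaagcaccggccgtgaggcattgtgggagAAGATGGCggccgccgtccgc
Ndufs4: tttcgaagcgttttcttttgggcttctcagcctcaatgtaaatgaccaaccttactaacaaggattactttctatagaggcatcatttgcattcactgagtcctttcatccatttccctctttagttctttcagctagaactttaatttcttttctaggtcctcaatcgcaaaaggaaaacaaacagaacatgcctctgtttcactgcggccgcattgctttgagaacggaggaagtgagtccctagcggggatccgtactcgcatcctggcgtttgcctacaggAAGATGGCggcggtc

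In the MCT 330 group against control, 64 of the 66 subunits had a fold change below 0 on the log2 scale, and the median over the 66 was -0.76, against -0.25 over all 24815 genes tested. Lower mRNA passed the threshold for 23 subunits and higher mRNA for 0 (limma, Benjamini-Hochberg adjusted p under 0.05 over all genes). Of all genes, 33.3% passed, 23.8% lower and 9.45% higher, so the members' 34.8% lower is to be read against 23.8%. At an unadjusted p under 0.05, 50 members were lower and 1 was higher, against 32.5% and 14.5% of all genes. The sample level of MCT 330 lay below both controls for 63 members (95.5%), against 54.5% of all genes, and below both MCT 270 samples for 64 members (97.0%), against 56% of all genes. The drop was of modest size: the quartiles of the members' log2 fold changes were -0.89 and -0.59, whereas those of all genes were -0.94 and 0.34. The members therefore lay in a narrower band than genes at large, as the plot of cumulative fold changes shows.

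**Figure D1:**
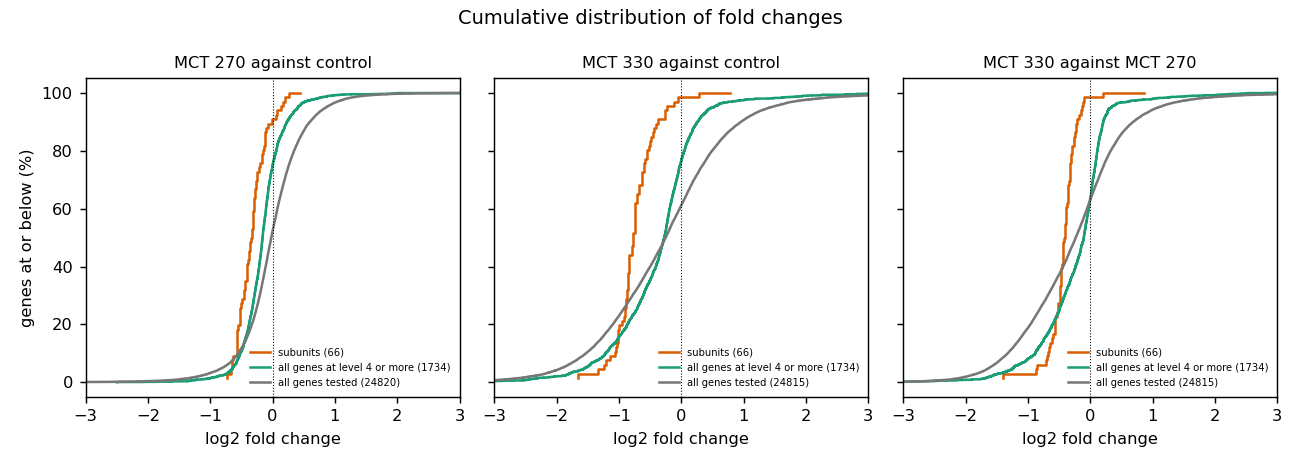
Cumulative share of genes (%) at or below each log2 fold change for the 66 subunits, for 1734 genes with a mean level of 4 or more and for all genes tested, in 3 comparisons. In the upper part of each panel the subunit curve lies left of both others, and its median at MCT 330 against control is -0.76.

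The number of members called moved with single arrays and with the scaling. It was 42 without control replicate 1 (22.1% of all genes called lower) and 2 without MCT 270 replicate 1 (14.1% of all genes). It was 11 with quantile normalization (16.7% of members, against 17.2% of all genes), 31 with normexp background correction before it (47% of members, against 15.8% of all genes), and 0 with no filter on dim probes (8.67% of all genes). With MCT 330 replicate 1 as a sample of its own, a choice made after seeing the data, it was 57, with 37% of all genes. The 11 members called with quantile normalization were all among the 23, and were called lower under normexp too: Cox4i2, Ndufa10, Ndufb10, Ndufb11, Ndufb2, Ndufb5, Ndufb9, Ndufs4, Ndufv3, Sdhb and Uqcr11. Quantile normalization brought the median of all genes to -0.05 and that of the members to -0.43, with 63 of 66 still below 0. The controls also differed from each other, and control replicate 1 sat at another place on the slide than replicates 2 and 3. In 62 of 65 members with both control values control replicate 1 was the lower one, with a median difference between joined replicates 2 and 3 and replicate 1 of 0.36. With quantile normalization that difference was 0.087, with 52 members lower in replicate 1, and with normexp 0.076. Among the 1734 genes with a mean level of 4 or more, which hold 51 members, that difference was 0.31, and over all genes it was -0.01. In those bright genes the median change at MCT 330 against control was -0.79 for the 51 members and -0.27 for all 1734, with 18 members called lower and 18.2% of the genes. The part of this control difference in the result was not tested.

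**Figure D2:**
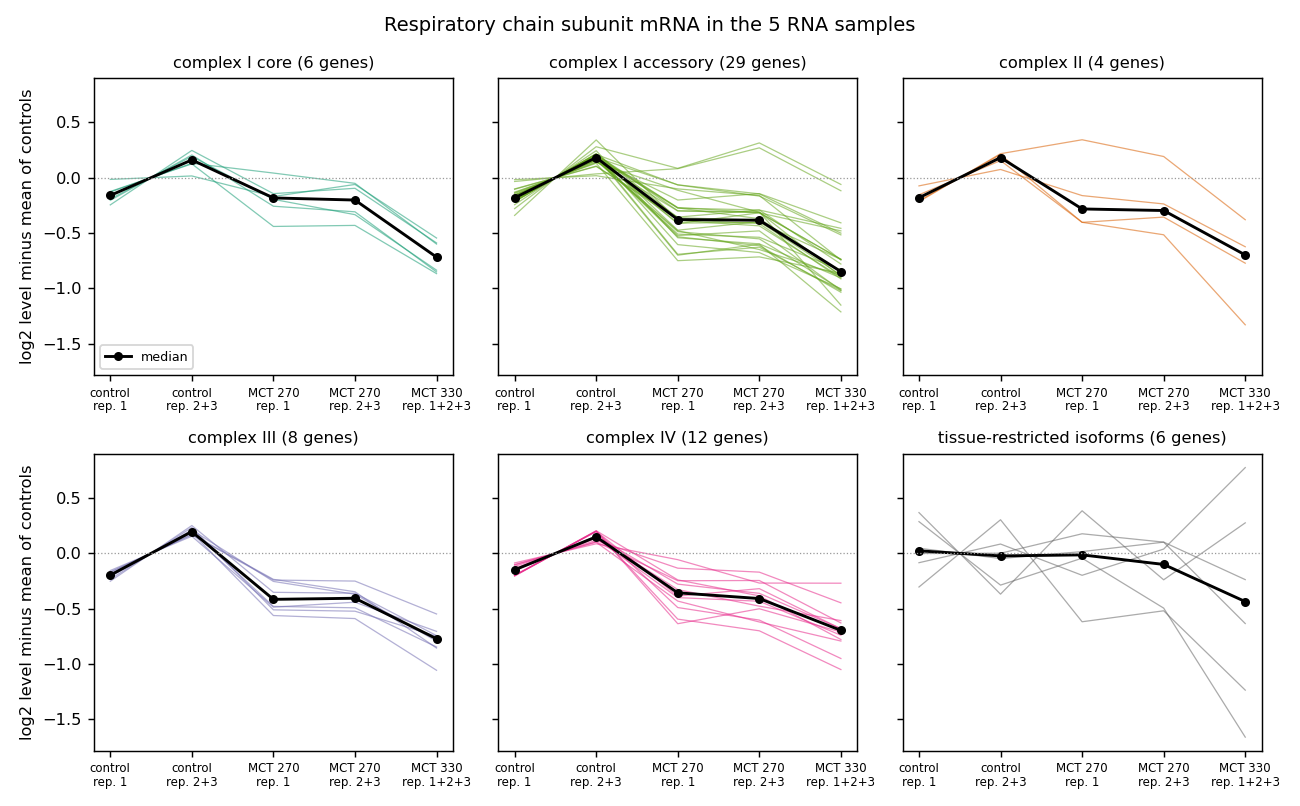
Log2 level of each of the 65 subunits measured in both control samples, minus its mean over them, in the 5 RNA samples, with 1 thin line per gene and the median in black, in a panel for each class. In the panels of complexes I to IV the MCT 330 sample has the lowest median, and control replicate 1 lies below joined control replicates 2 and 3.

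Complex I has core subunits that carry the flavin and iron-sulphur clusters, and accessory subunits that surround them. All 29 accessory subunits had values below 0 at MCT 330 against control, with a median of -0.85. Of these, 14 passed as lower (48.3%, against 23.8% of all genes). Ndufv3, an accessory subunit of the NADH-binding module, had levels of 5.91 and 6.30 in control, 5.41 and 5.51 in MCT 270, and 4.89 in MCT 330. No 2 groups overlapped, and the MCT 330 level was 2.32-fold lower than control (log2 fold change -1.21 ± 0.24 SE, adjusted p = 0.0241, limma).
Ndufb10, of the membrane arm, had levels of 5.56 and 5.98 in control, 5.47 and 5.46 in MCT 270, and 4.62 in MCT 330. The MCT 270 samples lay just under the lower control and the MCT 330 sample well below them (MCT 330 against control -1.15 ± 0.25 SE, adjusted p = 0.0284, limma). Ndufb5, Ndufb2, Ndufb11 and Ndufb9 also passed with log2 fold changes of -1.04, -1.02, -1.02 and -1.01, and Ndufa9 was 2.01-fold lower. The Ndufb genes encode membrane-arm subunits, and Ndufa9 a subunit near the junction of the arms that binds NADPH. Ndufa9 had levels of 5.01 and 5.44 in control, 4.62 and 4.55 in MCT 270, and 4.22 in MCT 330, again with no overlap.

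The remaining accessory subunits that passed were Ndufs4 (-0.91), Ndufb3 (-0.89), Ndufa3 (-0.88), Ndufa1 (-0.86), Ndufa13 (-0.84), Ndufa8 (-0.78) and Ndufa10 (-0.74). Ndufs4 is the subunit whose loss in mice gives a model of Leigh syndrome, and Ndufa13 is also known as Grim19. Ndufb7, Ndufs5, Ndufc1, Ndufb8, Ndufa6, Ndufs6, Ndufb4 and Ndufa5 had fold changes of -0.91 to -0.74 with adjusted p of 0.0559 to 0.0961 (limma), close to the called members in size. At the other end stood Ndufab1, the mitochondrial acyl carrier protein, with -0.06 ± 0.30 SE, and Ndufa11 with -0.12 ± 0.20 SE. Ndufab1 had levels of 1.14 and 1.70 in control, 1.50 and 1.73 in MCT 270, and 1.36 in MCT 330, which lie within the controls' range or just over it. Ndufc2, Ndufa12, Ndufa2, Ndufa7 and Ndufb6 lay between, at -0.52 to -0.41, and did not pass.

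Of the 7 core subunits of complex I, all had values below 0 at MCT 330 against control (median -0.60). Only Ndufv1 passed (14.3%, against 23.8% of all genes lower). With normexp 4 of the 7 passed as lower, against 15.8% of all genes, and with quantile normalization 0, against 17.2%. The shares by class therefore moved with the scaling, and differences between classes were not tested. Ndufv1 carries the flavin that accepts electrons from NADH. Its levels were 5.43 and 5.68 in control, 5.11 and 5.12 in MCT 270, and 4.69 in MCT 330, with no overlap between groups (MCT 330 against control -0.87 ± 0.21 SE, adjusted p = 0.0364, limma). Ndufs3 and Ndufs7, subunits of the arm that leads to coenzyme Q and the core subunits with the brightest probes, had fold changes of -0.85 ± 0.25 SE and -0.84 ± 0.24 SE with adjusted p of 0.0565 and 0.0580 (limma). Ndufs1, Ndufv2 and Ndufs8 had -0.60, -0.59 and -0.55.

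Complex II, succinate dehydrogenase, also belongs to the citrate cycle. Of its 4 subunits 1 passed as lower at MCT 330 against control (25%, against 23.8% of all genes). Sdhb, its iron-sulphur subunit, had levels of 6.78 and 7.09 in control, 6.54 and 6.42 in MCT 270, and 5.61 in MCT 330. The groups did not overlap, and MCT 330 was 2.51-fold lower than control (log2 fold change -1.33 ± 0.23 SE, adjusted p = 0.0169, limma), the lowest value among the 60 subunits that are not tissue-restricted. Sdhc, Sdha and Sdhd, which are the large membrane anchor, the flavoprotein and the small anchor, had -0.77, -0.62 and -0.38 and did not pass. With normexp Sdhc and Sdha passed too, and with quantile normalization only Sdhb of the 4 did. Sdhd had levels of 4.99 and 5.42 in control, 5.55 and 5.40 in MCT 270, and 4.83 in MCT 330, so its MCT 270 samples overlapped the controls.

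Complex III had a median of -0.77 over 8 subunits, and 2 passed as lower (25%, against 23.8% of all genes). Uqcr11, a small subunit, had levels of 5.96 and 6.33 in control, 5.59 and 5.56 in MCT 270, and 5.09 in MCT 330, with no overlap between groups. Its change in MCT 330 was -1.06 ± 0.24 SE (adjusted p = 0.0308, limma), and that of the core protein Uqcrc2 was -0.86 ± 0.23 SE (adjusted p = 0.0489, limma). Uqcrb, the Rieske iron-sulphur protein Uqcrfs1, Uqcrq, Uqcr10, the hinge protein Uqcrh and the core protein Uqcrc1 had values of -0.85 to -0.55 that did not pass. With normexp Uqcrfs1 and Uqcrc1 passed too, and with quantile normalization only Uqcr11 of the 8 did. Uqcrq and Uqcrh, the pair with the brightest probes, had levels of 6.06 and 5.96 in MCT 330, below every control and MCT 270 sample.

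In complex IV, cytochrome c oxidase, all 12 general subunits lay below 0 (median -0.70). Cox5b, Cox7b and Cox7c passed as lower (25%, against 23.8% of all genes). With normexp Cox7c did not pass, and with quantile normalization none of the 12 did. Cox5b, a zinc-binding subunit, had levels of 6.02 and 6.42 in control, 5.63 and 5.52 in MCT 270, and 5.17 in MCT 330, with no overlap, and its change was -1.05 ± 0.25 SE (adjusted p = 0.0340, limma). Cox7b and Cox7c had -0.95 ± 0.25 SE and -0.79 ± 0.21 SE (adjusted p = 0.0439 and 0.0477, limma). Cox6a1, Cox8a, Cox4i1, Cox6c, Cox7a2, Ndufa4, Cox5a and Cox6b1 had values of -0.78 to -0.45 that did not pass. Ndufa4, first assigned to complex I, is counted here with complex IV. Cox7a2l, known as a factor that joins complexes III and IV into supercomplexes, had -0.27 ± 0.21 SE. Its probes were at odds: the brightest read -0.27 and a dimmer one 0.52. It was the only one of 15 members with several probes whose probes differed in sign in this comparison. At MCT 270 against control, Cox7a2l, Ndufb11 and Ndufb5 had probes of opposite sign, and between the doses none did.

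**Figure D3:**
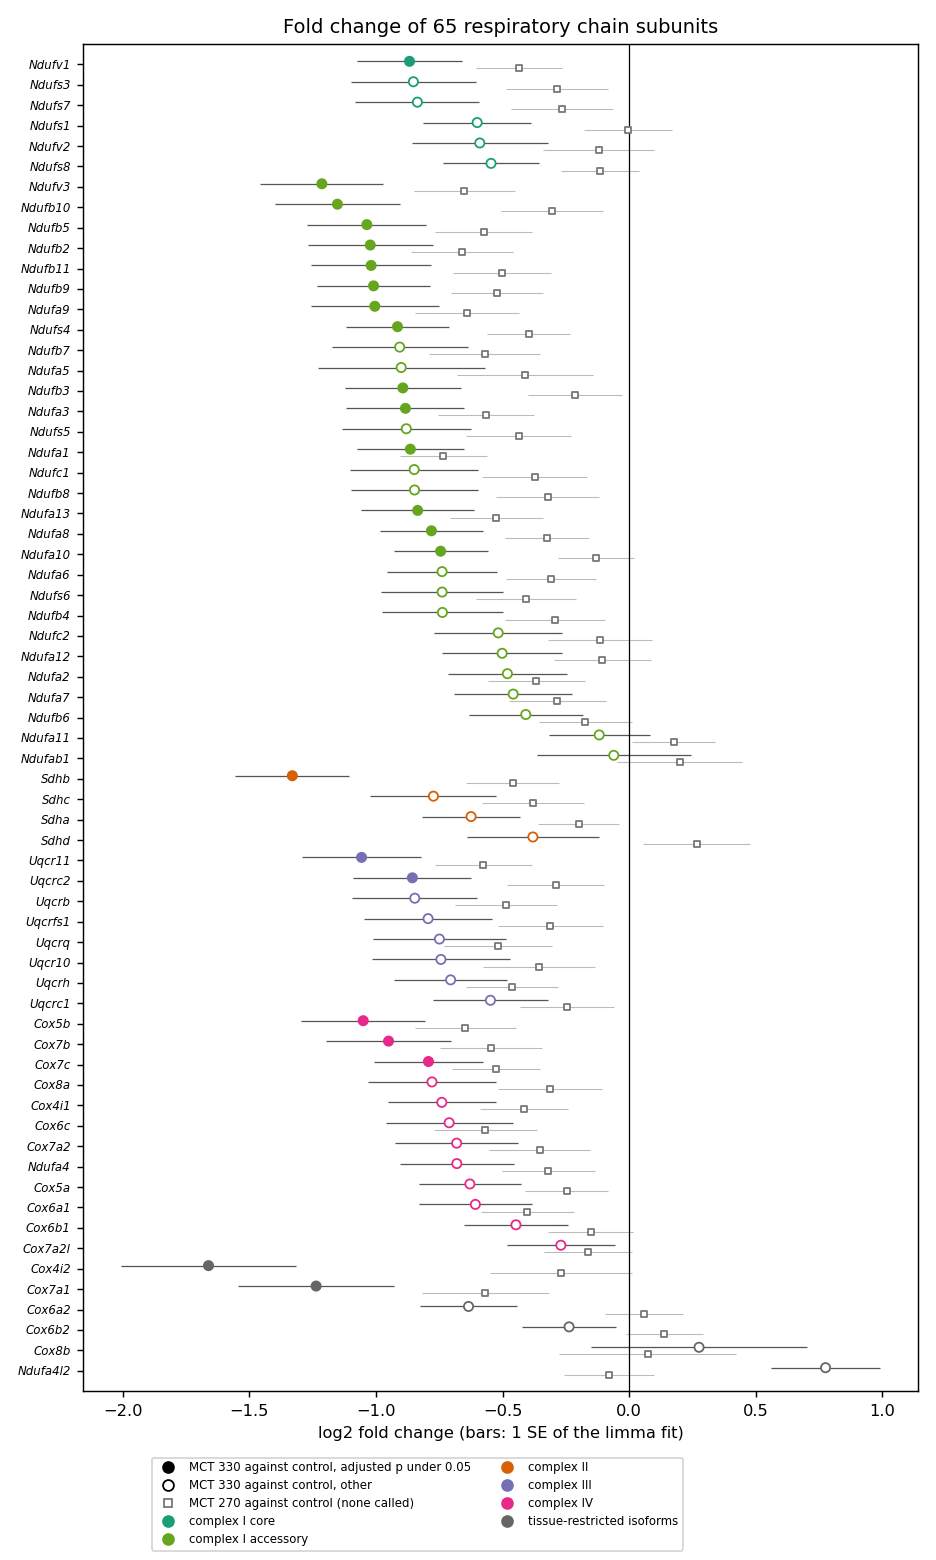
Log2 fold change by class of the 65 subunits measured in both control samples, with bars of 1 SE from the limma fit, for MCT 330 against control (circles, filled where adjusted p was under 0.05) and MCT 270 against control (squares). Circles lie below 0 for 63 genes and squares for 59, and none of the squares passed.

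Several subunits of complex IV, and Ndufa4, exist as a general form and a form known from other tissues, such as muscle, lung or testis. Of 8 such isoforms, 6 were measured and 2 of these passed as lower (33.3%, against 23.8% of all genes). Cox4i2, the isoform abundant in lung and known to be induced by low oxygen, had levels of 3.85 and 3.27 in control, 3.52 and 3.06 in MCT 270, and 1.90 in MCT 330. The control and MCT 270 samples overlapped while MCT 330 lay apart, 3.16-fold lower than control (log2 fold change -1.66 ± 0.34 SE, adjusted p = 0.0260, limma), which was the lowest of all members. Its general partner Cox4i1 had -0.74 ± 0.21 SE (adjusted p = 0.0561, limma).
Cox7a1, the heart and muscle isoform, had levels of -0.61 and 0.00290 in control, -0.92 and -0.82 in MCT 270, and -1.54 in MCT 330, with no overlap between groups. Its change was -1.24 ± 0.31 SE (adjusted p = 0.0391, limma), and that of Cox7a2, its general partner, was -0.68 ± 0.24 SE. The striated muscle isoform Cox6a2 had -0.63 ± 0.19 SE, against -0.61 ± 0.22 SE for Cox6a1, and the testis isoform Cox6b2 had -0.24 ± 0.19 SE, against -0.45 ± 0.21 SE for Cox6b1. None of these passed. Differences between an isoform and its partner were not tested.

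Ndufa4l2, a relative of Ndufa4 known as a hypoxia-induced gene, stood at the other end. Its levels were -1.03 and -0.87 in control, -1.15 and -0.91 in MCT 270, and -0.17 in MCT 330, so that MCT 330 lay above every other sample and the control and MCT 270 samples overlapped. The fold changes were 0.78 ± 0.22 SE against control and 0.86 ± 0.22 SE against MCT 270 (adjusted p = 0.0522 and 0.0534, limma), neither past the threshold, and that of Ndufa4 was -0.68. With normexp Ndufa4l2 passed in both comparisons (0.72 with adjusted p = 0.0301 against control, and 0.75 with adjusted p = 0.0417 against MCT 270, limma). Against control it also passed without MCT 330 replicate 3 (0.80, adjusted p = 0.0481, limma). Ndufa4l2 passed in neither comparison with quantile normalization (0.82 against control and 0.87 against MCT 270) or with no filter on dim probes (0.78 and 0.86). Cox8b, a heart and muscle isoform, was well above background on 1 control, 2 MCT 270 and 3 MCT 330 arrays and entered the tests only through MCT 330. Its change was 0.28 ± 0.43 SE, with that of Cox8a at -0.78. Of 8 striated muscle markers 4 were measured, and their summed level, in multiples of the array's 75th percentile, was 0.332 and 0.200 in control, 0.239 and 0.249 in MCT 270, and 0.188 in MCT 330. They did not move alike: Acta1, well above background on 1 control array and on all MCT 270 and MCT 330 arrays, passed as higher in MCT 330 against control (1.77, adjusted p = 0.0219, limma), while Mylpf, Ckm and Tnnt3 had -1.97, -0.99 and -0.58 and did not pass. Of 3 brown fat markers, Ucp1 was not well above background in any group, and Cidea only in MCT 330. Elovl3, which the liver also expresses, was well above background on all 6 control and MCT 270 arrays and on 0 MCT 330 arrays.

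**Figure D4:**
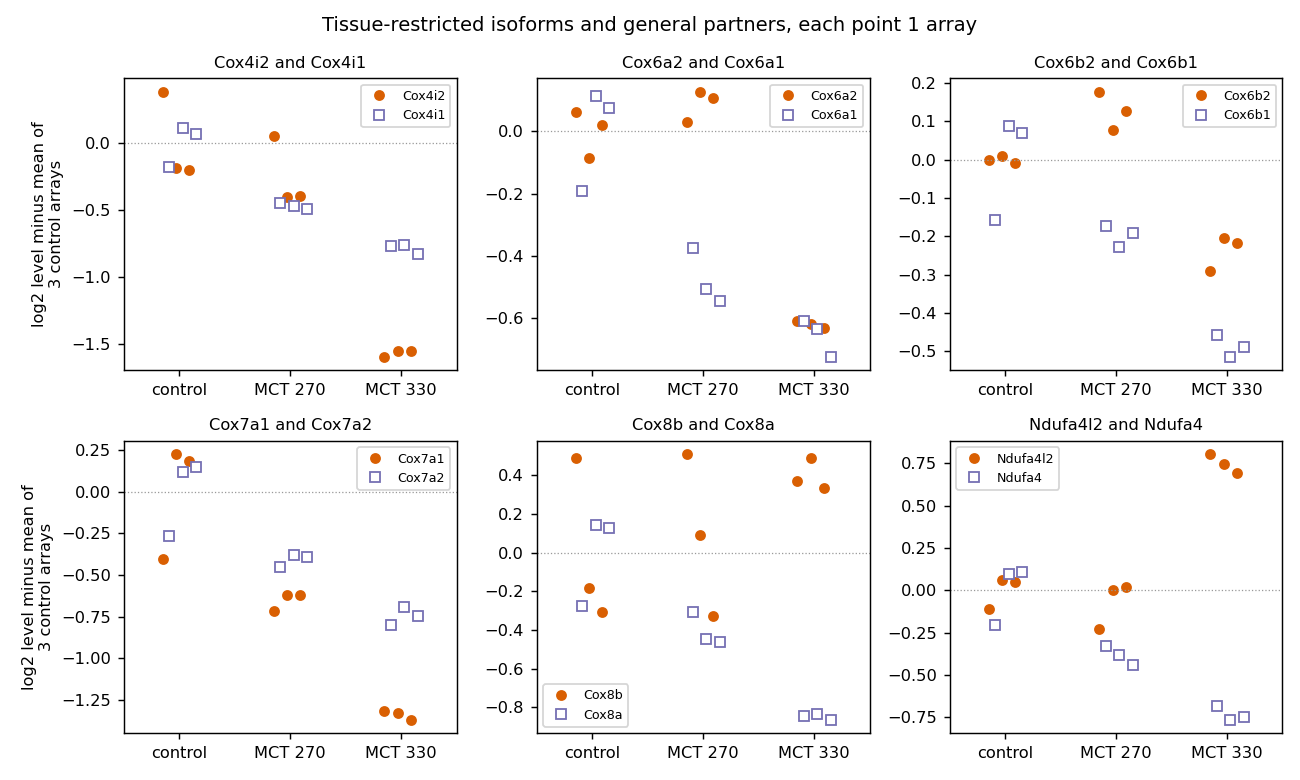
Log2 level of 6 tissue-restricted isoforms (filled circles) and their general partners (open squares) on each of the 9 arrays, minus the mean over the 3 control arrays, with a y axis of its own in each panel. Cox4i2 and Cox7a1 lie lowest on the MCT 330 arrays, and Ndufa4l2 lies highest there.

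At 270 mg/kg the values lay closer to 0. In MCT 270 against control, 0 of 66 members and 0 of 24820 genes (0%) passed after adjustment by limma. This count of 0 does not show that the groups were alike, since few samples were compared. On simulated data with few changed genes, the same fit called fewer of them than it missed. That simulation changed genes only in the sample of the higher dose. How many changes the fit would miss in MCT 270 against control was not tested. At an unadjusted p under 0.05, 13 members were lower and 0 higher, against 8.79% of all genes lower and 9.8% higher. Of the 66 members, 59 had a value below 0, with a median of -0.32 against -0.02 over all genes, and in the 1734 bright genes the medians were -0.38 for the members and -0.16 for all. The lowest values were those of Ndufa1 (-0.73), Ndufb2 (-0.66), Ndufv3 (-0.65), Cox5b (-0.65) and Ndufa9 (-0.64), and among the highest were those of Sdhd (0.27), Ndufab1 (0.20), Ndufa11 (0.18) and Cox6b2 (0.14). By class, the medians were -0.12 in the core of complex I, -0.37 in its accessory subunits, -0.29 in complex II, -0.41 in complex III and -0.38 in complex IV. The median over the members was -0.52 without control replicate 1, -0.18 with quantile normalization and -0.18 with normexp. With the 6 arrays of these groups as separate samples and scan session as a block, 20 members were called lower, against 9.39% of all genes, a count that treats joined arrays as independent.

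Ndufa1, a small membrane subunit of complex I, had levels of 5.59 and 5.85 in control, 4.97 and 5.00 in MCT 270, and 4.85 in MCT 330. Both doses lay below the controls and were close to each other, with -0.73 ± 0.17 SE at MCT 270 (adjusted p = 0.145, limma) and -0.86 ± 0.21 SE at MCT 330 (adjusted p = 0.0378, limma). Both MCT 270 samples lay below both controls for 50 members (75.8%), against 27.5% of all genes. The levels fell stepwise with dose, with no overlap between any 2 groups, for 50 members (75.8%) and 16.9% of all genes. With quantile normalization 42 members and 14.8% of genes did so.

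In MCT 330 against MCT 270, 0 members passed by limma, whereas 21.8% of all genes did, 16.8% lower and 4.97% higher. At an unadjusted p under 0.05, 8 members were lower and 1 was higher, against 29% and 9.97% of all genes. Values were below 0 for 64 members, with a median of -0.40, against -0.23 over all genes. Among the lowest were Cox4i2 (-1.39 ± 0.34 SE, adjusted p = 0.0508, limma), Sdhb (-0.87), Ndufb10 (-0.85) and Cox6a2 (-0.69). The highest were Ndufa4l2, Cox8b (0.20), Cox7a2l (-0.11), Ndufa2 (-0.11) and Ndufa1 (-0.13), of which Cox7a2l, Ndufa2 and Ndufa1 turned positive with quantile normalization. This comparison and MCT 330 against control share the MCT 330 sample, and both comparisons with control share the controls.

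Other genes of oxidative phosphorylation were described by lists. ATP synthase, which follows the chain, had 5 of 18 subunits lower at MCT 330 against control (27.8%, against 23.8% of all genes), 0 higher, and a median of -0.75. Atp5a1, its catalytic-domain alpha subunit, had levels of 6.25 and 6.39 in control, 6.01 and 5.86 in MCT 270, and 5.19 in MCT 330 (MCT 330 against control -1.13 ± 0.20 SE, adjusted p = 0.0186, limma). Atp5j2, Atp5j and Atp5e passed at -1.10, -1.02 and -0.97. With quantile normalization 3 of the 18 passed, and with normexp 9. Electron carriers and coenzyme Q genes had 6 of 21 lower (28.6%, against 23.8% of all genes) and 0 higher. Their median of -0.26 was close to that of all genes and became -0.02 with quantile normalization and with normexp, and 20 of the 21 lay below 0 in MCT 330 against MCT 270. Coq8a, a kinase-like protein of coenzyme Q synthesis, had -2.10 ± 0.21 SE (adjusted p = 0.0091, limma), and Etfa, Etfdh and Etfb, the electron transfer flavoprotein and its dehydrogenase that bring electrons from fatty acid oxidation to coenzyme Q, had -1.21, -1.15 and -1.15. All of these passed.

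Assembly factors had 5 of 42 lower (11.9%, against 23.8% of all genes) and 0 higher, with a median of -0.20, against -0.25 over all genes. Nubpl, which delivers iron-sulphur clusters to complex I, had levels of 1.15 and 1.16 in control, 0.27 and -0.18 in MCT 270, and -1.02 in MCT 330 (MCT 330 against control -2.18 ± 0.26 SE, adjusted p = 0.0100, limma). Ndufaf2, the copper chaperone Cox17 and Uqcc3 passed at -1.19, -1.13 and -0.89. The citrate cycle had 0 of 16 called in either direction by limma, against 33.3% of all genes. At an unadjusted p under 0.05, 3 were lower and 0 higher, against 32.5% and 14.5% of all genes. Their median of -0.42 became -0.17 with quantile normalization and with normexp. Mitochondrial ribosomal proteins had 2 of 78 lower (2.56%, against 23.8% of all genes) and 1 higher (against 9.45% of all genes). Their median of -0.09 became 0.06 with quantile normalization. Mrps28 had -1.38 and Mrps6 1.02. These lists are set beside the subunits as counts and medians, and their differences were not tested.

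**Figure D5:**
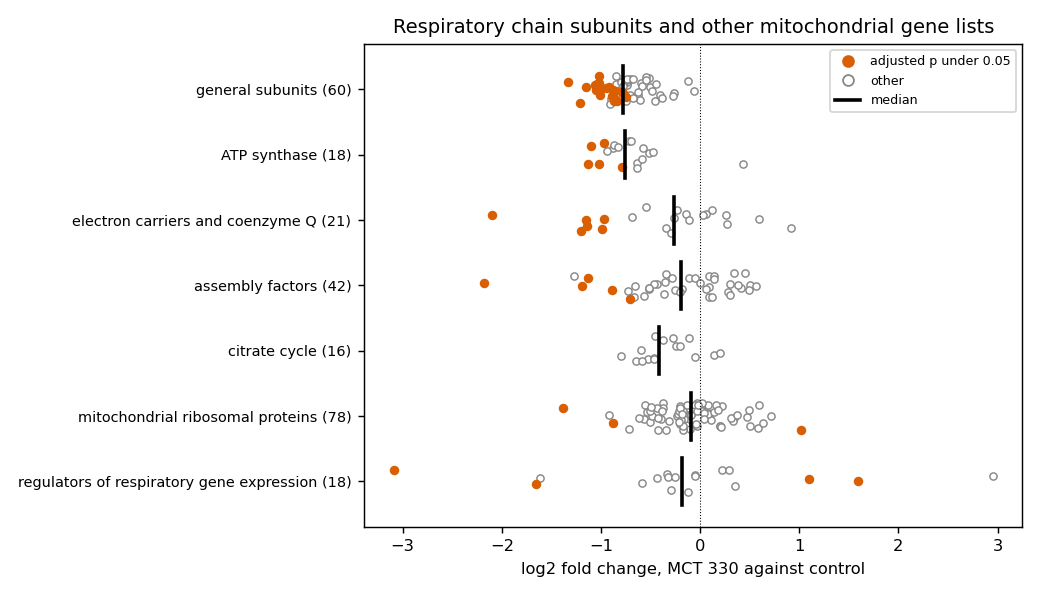
Log2 fold change in MCT 330 against control for the 60 general subunits and 6 other mitochondrial gene lists, with 1 point per gene, filled where adjusted p was under 0.05, and a bar at the median. The medians of the general subunits and ATP synthase are -0.78 and -0.75, and that of the mitochondrial ribosomal proteins is -0.09.

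Among 18 regulators of respiratory gene expression, 2 were lower in MCT 330 against control (11.1%, against 23.8% of all genes). Another 2 were higher (against 9.45% of all genes). Ppargc1b, a coactivator of mitochondrial genes, had levels of -2.63 and -2.15 in control, -3.22 and -2.89 in MCT 270, and -5.48 in MCT 330 (MCT 330 against control -3.09 ± 0.30 SE, adjusted p = 0.0091, limma). The fatty acid receptor Ppara passed at -1.66. Nrip1, a corepressor of oxidative genes, passed at 1.59. Hif1a, the hypoxia-inducible factor, also passed, with levels of -0.07 and 0.09 in control, 0.83 and 0.73 in MCT 270, and 1.11 in MCT 330. The related coactivator Ppargc1a had -1.61 ± 0.45 SE with an adjusted p of 0.0512 (limma). Nrf1, Gabpa and Yy1, whose binding letters were counted in the promoters, had -0.13, -0.43 and -0.25, and none of them passed.

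Markers of the cells of the liver differed between the same samples. In whole liver, fewer cells of a type and less RNA per cell cannot be told apart. Of 10 hepatocyte markers, all detected, 2 were lower in MCT 330 against control (Apoa1 and Hnf4a) and 0 higher. The share lower was 20%, against 23.8% of all genes. Their median was -0.35, with summed levels of 2386 and 2643 in control, 2549 and 2127 in MCT 270, and 2050 in MCT 330. With quantile normalization that median was -0.02 and 1 marker was lower, and with normexp it was -0.11, with 2 lower and 1 higher. Albumin had -0.31 ± 0.22 SE. Of 7 neutrophil markers 5 were higher (71.4%, against 9.45% of all genes) and 0 lower. Their sums were 8.65 and 11.6 in control, 8.21 and 9.13 in MCT 270, and 40.6 in MCT 330. Cxcr2, Mmp8 and Ngp, of these 7, were not well above background on any control array. They entered the tests only through a group given MCT, so the count of higher markers depends in part on that filter.
Of 6 endothelial markers 4 were lower (66.7%, against 23.8% of all genes) and 0 higher. Cdh5 went the other way, at 0.71. With quantile normalization and with normexp 4 markers were lower and 1 higher. The sums of the 6 were 24.5 and 21.8 in control, 10.6 and 9.39 in MCT 270, and 7.05 in MCT 330. Of 5 stellate cell markers 3 were lower (60%, against 23.8% of all genes) and 1 (Des) higher. Their sums were 8.44 and 8.19 in control, 3.78 and 2.85 in MCT 270, and 1.12 in MCT 330. Of 6 monocyte and macrophage markers measured, Ccr2 and Itgam were higher in MCT 330 against control (against 9.45% of all genes). Adgre1 and Clec4f were lower (33.3%, against 23.8% of all genes). The sums of the 6 were 11.4 and 9.41 in control, 8.52 and 9.51 in MCT 270, and 8.93 in MCT 330. Of 3 erythroid markers measured 0 passed in either direction by limma, with 1 higher and 1 lower at an unadjusted p under 0.05, and the sums were 14.3 and 39.7 in control, 25.1 and 49.2 in MCT 270, and 142 in MCT 330, with the globin gene Hba-a1 at 3.08 and adjusted p = 0.0714 (limma).
The endothelial and stellate sums were lower at both doses, and the neutrophil and erythroid sums were highest at MCT 330. Their part in the values of the subunits was not tested.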

How the data were processed

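Per the file headers, the authors made the deposited spot intensity readings of these 1-colour arrays with Feature Extraction (Agilent, version 11.0.1.1). The processed intensity, from which background was already subtracted, was used. Computed here were log2 values minus each array's 75th percentile over the 43020 spots that are not controls. Outlier spots became missing values, and spots of 1 probe were averaged. A probe entered the tests if at least 1 group had it well above background on each of its arrays, and the brightest such probe stood for a gene (24820 genes). Probe names came from RefSeq (GRCm38.p6): 21464 of 33258 systematic names matched a symbol. In the joined MCT 330 arrays, values over 1 log2 unit from both others were left out; no member had one.

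Groups were compared with limma 3.58.1 in R 4.3.3 (lmFit and eBayes, 1 fit over 5 samples, 2 residual degrees of freedom, Benjamini-Hochberg over all genes, threshold 0.05) after the fit was tested on simulated data. An SE is that of the fit. Normexp used an offset of 50 on the median spot signal.

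The members, the gene lists and the tests were chosen with earlier results of these data known. Members are accounted for by complex, and described further are those that passed, the 5 highest and 5 lowest per comparison, the 2 brightest per complex, tissue-restricted isoforms with partners, and members whose probes disagreed. Up to 4 genes are named per pathway list. Ppargc1a, Nrf1, Gabpa, Yy1 and the marker genes fall outside this rule and were named after their values were seen. Of the genes due to be named, 2 are not reported here. The deposited miRNA table was not used here.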

Additional observations from a re-analysis of the deposited data

How the results depend on the processing

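Of 955 recomputed values of 55 named changes, 803 kept their direction and side of the threshold, 68 fell short of it, 76 newly passed and 8 reversed. For MCT 330 against control, members called lower numbered 23 in the analysis reported (23.8% of all genes), 11 with quantile normalization (17.2%), 31 with normexp (15.8%), 0 with no filter on dim probes (8.67%), 62 with 9 arrays as 9 samples (47.2%), 62 with a replicate block (46.9%), and 2 to 42 leaving out 1 array at a time (14.1% and 22.1%). For MCT 270 against control they numbered 0, then 48 with 9 arrays as samples (19.7%), 42 with a replicate block (19.5%), 20 with scan session as a block over 6 arrays (9.39%), and 0 with every array left out in turn and with a replicate block over the 4 control and MCT 270 samples. For MCT 330 against MCT 270 they numbered 0, then 4 with normexp (8.22%), 53 with 9 arrays (44.4%), 50 with a replicate block (44%), and 0 to 3 leaving out 1 array (3 without control replicate 1). With MCT 330 replicate 1 as a sample of its own, chosen after seeing the data, the counts were 57 (37%), 1 (3.44%) and 20 (32.5%) in the same order. With normexp 1 member, Ndufa4l2, was called higher in both MCT 330 comparisons. With 9 arrays as 9 samples 1 member was called higher at each dose against control. Fits over 9 arrays, and that with MCT 330 replicate 1 as a sample of its own, count joined arrays as independent. Member medians with quantile normalization were -0.43, -0.18 and -0.24 in the same order, with normexp -0.44, -0.18 and -0.25, and leaving out 1 array -0.96 to -0.75, -0.52 to -0.32, and -0.42 to -0.39. Reversed were, at MCT 330 against MCT 270, Ndufa1 (0.032 with quantile normalization, 0.040 with normexp), Ndufa2 (0.064, 0.036) and Cox7a2l (0.095, 0.143), and Ndufab1 at MCT 330 with normexp (0.022) and at MCT 270 without control replicate 1 (-0.080, lowest of a range up to 0.31 leaving out 1 array). The causes were not tested. Deviations of same-numbered arrays from their group means had correlations of -0.034 to 0.042 across genes. The joined MCT 330 arrays differ only by noise, so correlations with them could not show a pairing. The difference between the control samples and that between the MCT 270 samples had a correlation of 0.0156. Whether the numbers pair the samples is not decided by these values. Of slide and scan, scan session was the block used, over the control and MCT 270 arrays. Place on the slide could not be used there, since no place held arrays of both groups. Signal over background limits Cox8b, Cox7b2 and Cox8c.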
